A study of Mus musculus with 12 samples.

Results

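The genes described here are 10 acute-phase and epithelial defence genes, Lbp, Lcn2, Saa1, Saa2, Saa3, Hp, C3, Cfb, Fut2 and Pigr, taken by name from the 24421 genes counted in mouse pancreatic islets. All 10 were found in the count tables, and 5 of them (Lbp, Lcn2, C3, Cfb and Pigr) passed the filter on low counts that left 13583 genes for testing. The islets, which hold the endocrine cells of the pancreas, were sequenced as bulk RNA after 6 weeks of high-fat diet. In 6 libraries the mice carried a knockout of interleukin-22 receptor subunit alpha 1 in β cells, the insulin-producing cells (Il22ra1βKO, here BKO). The other 6 libraries came from Ins2Cre control mice (here Cre), in which the Ins2 promoter directs Cre recombinase to insulin-producing cells, and the study asked how islet transcription differs where β cells lack this receptor subunit. The knockout is directed at β cells, so the receptor gene of other islet cells is not its target. The labels give neither the age nor the sex of the mice, and since they do not tie each library to its own mouse, p-values reflect only the spread between these samples, which may be technical. In bulk islets, fewer cells of a type and less RNA per cell cannot be told apart.

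Interleukin-22 is made by lymphocytes and acts on epithelial cells through a receptor formed by Il22ra1 and Il10rb, which activates the transcription factor STAT3. In gut, airway and liver epithelium it induces antimicrobial proteins, acute-phase proteins and enzymes that decorate the mucosal surface with sugars. Interleukin-6 and interleukin-1 induce many of the same genes, through STAT3, C/EBP proteins and NF-κB.

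Reads assigned to genes ranged from 10356093 to 12397139 per library, so that 3 reads, the floor used here, stood for 0.238 to 0.284 CPM, the unit of read counts scaled to a common library size (TMM factors). The targeted gene Il22ra1 held between 1 and 3 reads in each BKO library and between 1 and 5 in each Cre library, 13 against 16 in all, so a loss could not be checked at this depth. The islet label fitted the markers: Ins2 averaged 71210 CPM in BKO and 74800 CPM in Cre. With edgeR's quasi-likelihood test and Benjamini-Hochberg adjustment, 0 of 13583 genes (0%) passed at an adjusted p under 0.05 in either direction. At an unadjusted p under 0.05, 1182 genes (8.7%) were higher and 633 (4.66%) lower in BKO. DESeq2 called 160 genes higher (1.12% of those it adjusted) and 54 lower. The edgeR count was 262 without BKO-4, 110 without Cre-5, 6 without Cre-1 and 5 without BKO-3.

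RefSeq promoter windows (GRCm38.p6, 250 bases before to 50 bases after a start site) were matched for 6 of the 10 genes, Lcn2, C3, Pigr, Saa1, Saa2 and Saa3. The sequences before the start sites of Lcn2, C3 and Pigr are shown because Lcn2 and C3 varied together between libraries while Pigr followed them less closely. They run 5′ to 3′ on the strand of the gene, with a match to a searched motif in capitals, and leave out annotated untranslated exon bases. RefSeq's start of Lcn2 lies inside the longer GENCODE gene model given with its values. The Lcn2 stretch is chr2:32387798-32387989 on the minus strand, the C3 stretch chr17:57228137-57228386 on the minus strand and the Pigr stretch chr1:130826434-130826683 on the plus strand.
Lcn2: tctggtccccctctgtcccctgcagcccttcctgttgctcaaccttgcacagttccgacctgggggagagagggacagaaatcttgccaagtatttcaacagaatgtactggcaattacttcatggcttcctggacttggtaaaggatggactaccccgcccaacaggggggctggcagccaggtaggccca
C3: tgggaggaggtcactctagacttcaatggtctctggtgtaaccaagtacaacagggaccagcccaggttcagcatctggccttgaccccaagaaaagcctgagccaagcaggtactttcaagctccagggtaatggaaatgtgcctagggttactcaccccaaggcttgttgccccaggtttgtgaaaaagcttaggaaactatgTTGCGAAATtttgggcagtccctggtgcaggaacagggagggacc
Pigr: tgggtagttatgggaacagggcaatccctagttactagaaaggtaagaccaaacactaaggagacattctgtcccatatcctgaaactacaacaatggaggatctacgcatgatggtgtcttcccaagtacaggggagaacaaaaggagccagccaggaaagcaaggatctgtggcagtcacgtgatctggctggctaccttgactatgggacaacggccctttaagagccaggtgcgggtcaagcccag
The 4 motifs, each searched on both strands of the whole 300-base window, were the STAT motif TTCNNNGAA, the C/EBP-type interleukin-6 element TTNNGNAAT, the acute-phase element CTGGGAA and the NF-κB motif (GGG, then 2 of any base, then TTTCC). No matches overlapped in these windows. The C3 window held 1 match, a C/EBP-type element (TTGCGAAAT) whose first base lies 45 bases before the start site. The Pigr window held 1 match, a STAT motif (TTCCTGGAA) that begins 39 bases after the start site and is therefore outside the stretch shown. The Lcn2 window held none of the 4. Saa1 and Saa2 each held ATTGCACAA on the strand of the gene, which is the C/EBP-type element read on the opposite strand. Their windows were 95.3% identical when aligned, and Saa3 held no match. Among 32851 promoter windows of the same length, 8.3% held the STAT motif, 11.5% the C/EBP-type element, 11.1% the acute-phase element and 1.63% the NF-κB motif, so these matches describe the sequences only.

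Lbp encodes lipopolysaccharide-binding protein, which carries bacterial lipopolysaccharide to its co-receptor Cd14. Its locus is chr2:158306493-158332852, plus strand (GRCm38, the mm10 build; ENSMUSG00000016024.9). Its level was low, with a lowest, median and highest value of 0.958, 1.95 and 2.56 CPM in BKO and 0.177, 0.698 and 1.23 CPM in Cre. Of the BKO libraries, 5 lay above every Cre library, and BKO-4, with 11 reads, lay below Cre-5, with 15. Levels averaged 1.92 ± 0.577 CPM over BKO and 0.708 ± 0.346 CPM over Cre libraries (SD, n = 6 each), giving a log2 fold change of 1.42 ± 0.33 (SE), or 2.68-fold. The gene passed the count filter through the BKO libraries alone, since only 2 Cre libraries reached its cutoff of 0.865 CPM. It did not pass edgeR's test over all genes (adjusted p = 0.13, unadjusted p = 0.00041), although DESeq2 called it (adjusted p = 0.0154). Leaving out BKO-4, its lowest BKO library, gave an edgeR adjusted p of 0.0252. Leaving out Cre-5, its highest Cre library, gave one of 0.0374. With any other single library left out, the edgeR adjusted p ran from 0.085 (without Cre-1) to 0.355 (without BKO-2).

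Lcn2 encodes lipocalin 2, which withholds iron from bacteria by binding their siderophores. Its locus is chr2:32384633-32388252, minus strand (ENSMUSG00000026822.14). The BKO libraries spread from 48.1 CPM (BKO-3) through a median of 93.0 to 171 CPM (BKO-2). The Cre libraries spread from 42.9 CPM (Cre-4) through a median of 49.5 to 69.5 CPM (Cre-5). BKO-2, BKO-5, BKO-1 and BKO-6 lay above all Cre libraries, while BKO-3 and BKO-4 lay within the Cre range. The means were 104 ± 48.1 against 52.8 ± 10.9 CPM (SD, n = 6 each), 1.97-fold, with a log2 fold change of 0.97 ± 0.30 (SE; edgeR adjusted p = 0.222, unadjusted p = 0.00892). DESeq2 gave an adjusted p of 0.0622. The coefficient of variation was 46.4% among BKO and 20.7% among Cre libraries.

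The serum amyloid A genes Saa1, Saa2 and Saa3 and the haemoglobin scavenger haptoglobin, Hp, are major acute-phase genes of liver, and Saa3 is also made locally by macrophages, fat and epithelium. All 4 were close to absent from these islets, and none passed the count filter. Saa1 (chromosome 7, 46740497 to 46742980, minus strand) held 7 reads over the 6 BKO and 5 over the 6 Cre libraries, and Saa2 (46751790 to 46754313, plus strand) held 3 and 4. No library had more than 3 reads of either gene. Saa3 (46711998 to 46715700, minus strand) held 16 reads in BKO and 27 in Cre. Of the 16, BKO-4 held 10, and of the 27, Cre-5 held 13. The BKO to Cre ratio of summed Saa3 reads, scaled for depth, was 0.637 (exact 95% interval 0.32 to 1.22, for counting error alone). Hp (chromosome 8, 109575128 to 109579172, minus strand) held 10 reads in BKO and 2 in Cre, and 7 of the 10 were in BKO-5. Its depth-scaled ratio was 5.37, with an exact 95% interval of 1.14 to 50.4 that leaves out the spread between libraries. In the fit without a count filter these 4 genes had adjusted p-values between 0.498 (Hp) and 0.946 (Saa2) by edgeR over 19453 genes. The protein-coding transcripts of Saa1 and Saa2 shared 0 of 510 windows of 100 bases, but shorter read ends shared by these paralogs could still be split or set aside in counting.

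C3, the central component of the complement cascade, and Cfb, factor B, the protease of its alternative pathway, were both well expressed and were the least different of the tested genes relative to their spread. C3 (chromosome 17, 57203970 to 57228136, minus strand, ENSMUSG00000024164.15) ranged from 31.6 CPM through a median of 41.0 to 83.6 CPM in BKO. In Cre it ranged from 29.1 through 32.6 to 51.6 CPM. Only BKO-2 (83.6) and BKO-5 (71.8) lay above the highest Cre library, and the other 4 BKO libraries overlapped with Cre. The means of 51.4 ± 21.1 and 35.8 ± 8.60 CPM (SD, n = 6 each) gave a log2 fold change of 0.52 ± 0.26 (SE; edgeR adjusted p = 0.432), which was 0.31 without BKO-2. Cfb (chromosome 17, 34856374 to 34862518, minus strand, ENSMUSG00000090231.10) held both the lowest and the highest value among the BKO libraries, 35.9 CPM in BKO-3 and 128 CPM in BKO-2, around a median of 89.8. The Cre libraries ran from 57.8 through 66.7 to 92.2 CPM. At 87.9 ± 34.0 against 70.7 ± 13.7 CPM (SD, n = 6 each) the log2 fold change was 0.31 ± 0.27 (SE; edgeR adjusted p = 0.695). It was 0.16 without BKO-2, 0.21 without BKO-5 and 0.47 without BKO-3. Cfb overlaps Gm20547 and Mir6972 and C3 overlaps Mir6978, in each case on the same strand, so reads of the shared parts cannot be assigned with certainty.

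Fut2 and Pigr act at the mucosal surface. Fut2 encodes the fucosyltransferase that adds terminal fucose to glycans of secretions and epithelial surfaces. Its locus is chr7:45648591-45666394, minus strand (ENSMUSG00000055978.5), and it did not pass the count filter. Its lowest, median and highest values were 0.436, 1.32 and 2.47 CPM in BKO and 0, 0.406 and 0.688 CPM in Cre. BKO-1, BKO-2, BKO-5 and BKO-6 were above all Cre libraries, whereas BKO-3 (7 reads) and BKO-4 (5 reads) were within the Cre range of 0 to 8 reads. The means were 1.41 ± 0.857 against 0.403 ± 0.264 CPM (SD, n = 6 each). The summed reads, 94 against 29, gave a depth-scaled ratio of 3.48 (exact 95% interval 2.27 to 5.48, for counting error alone). In the fit without a count filter the log2 fold change was 1.76 ± 0.49 (SE; edgeR adjusted p = 0.181), and DESeq2 gave an adjusted p of 0.0517.

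Pigr encodes the polymeric immunoglobulin receptor, which carries IgA across epithelia. Its locus is chr1:130826684-130852249, plus strand (ENSMUSG00000026417.13). It had the narrowest spread of the detected genes, from 97.6 through a median of 111 to 151 CPM in BKO and from 80.7 through 91.7 to 107 CPM in Cre. All 6 BKO libraries were above the Cre mean, but only BKO-1, BKO-2 and BKO-5 were above the highest Cre library. The means of 116 ± 19.98 and 93.3 ± 10.5 CPM (SD, n = 6 each) gave a log2 fold change of 0.31 ± 0.10 (SE), or 1.24-fold. Pigr did not pass over all genes (edgeR adjusted p = 0.224, unadjusted p = 0.00963; DESeq2 adjusted p = 0.128).

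**Figure D1:**
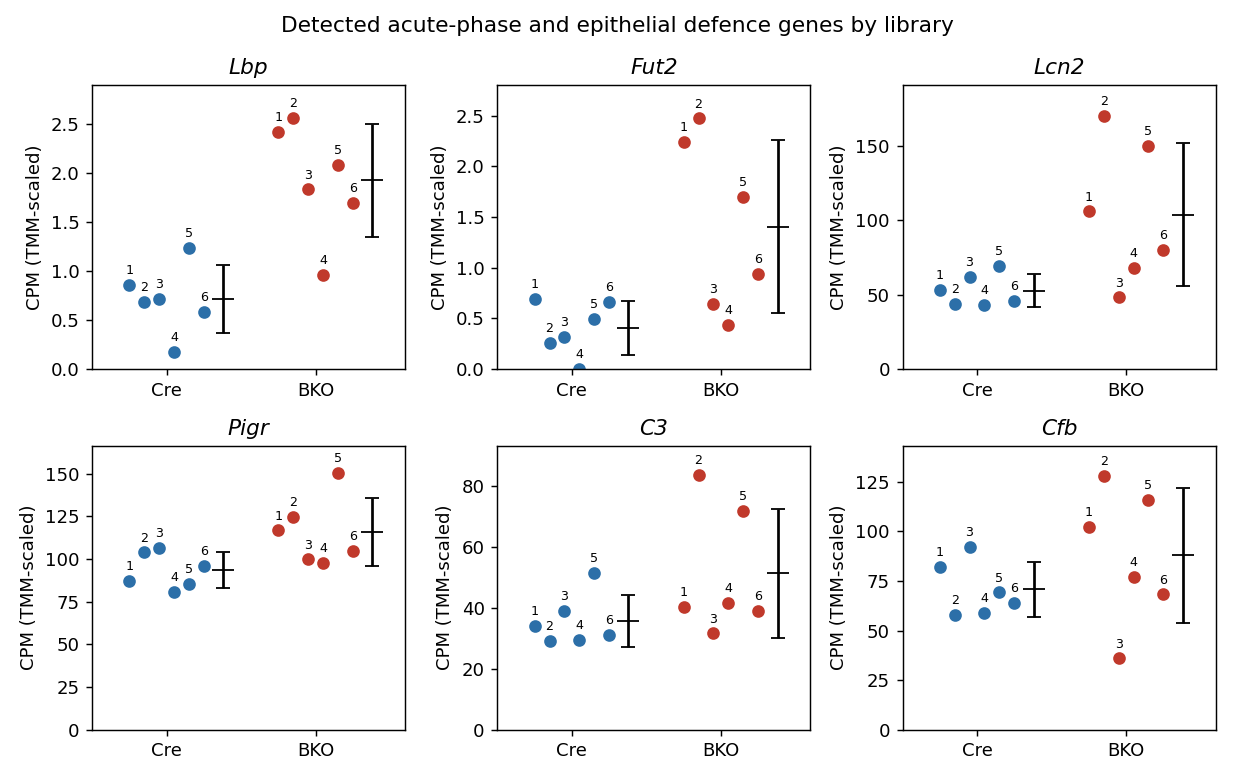
TMM-scaled CPM (vertical axis, from 0) of the 6 detected genes in each Cre (blue) and BKO (red) library, with the replicate number of the title above each point and the mean ± SD (n = 6) as a black bar. No gene separates the groups completely, and BKO-2 and BKO-5 are the 2 highest libraries for Lcn2, C3, Cfb and Pigr.

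Per kilobase of protein-coding exon, levels could be compared between genes. In Cre islets Lcn2 was the highest at 42.7 ± 8.83 RPKM (CPM per kilobase; SD, n = 6), followed by Cfb at 25.0 ± 4.86 and Pigr at 23.2 ± 2.62, which did not differ beyond their spread. C3 was at 6.96 ± 1.68 RPKM. Lbp (0.214 ± 0.105) and Fut2 (0.132 ± 0.0863) were more than an order of magnitude lower and overlapped. In BKO the order was the same, with Lcn2 at 84.0 ± 38.9, Cfb at 31.1 ± 12.1, Pigr at 28.8 ± 4.97, C3 at 10 ± 4.10, Lbp at 0.582 ± 0.175 and Fut2 at 0.459 ± 0.280 RPKM.

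Of the 10 genes, 8 had a positive and 2 a negative log2 fold change in the fit without a count filter, with a median of 0.514, where 51.1% of all genes were positive. None of the 10 had all 6 BKO libraries above all 6 Cre libraries, which 45 of the 13583 tested genes (0.331%) had. Of the 5 tested, 0 passed edgeR's test over all genes (0% of all genes did), and 3 (Lbp, Lcn2 and Pigr) had an unadjusted p under 0.05 and were higher in BKO, as 8.7% of all genes were (4.66% were lower). Lbp alone had a log2 fold change of at least 1, as 0.847% of all genes did. No support is drawn from these counts, since Lbp entered the test through its BKO level.

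The high libraries were largely shared between genes. BKO-2 had the highest and BKO-5 the second highest level of Lcn2, C3 and Cfb among the 12 libraries, and the same pair led for Pigr in the opposite order. BKO-3 was the lowest BKO library for Lcn2, C3 and Cfb. With the genotype means taken off, log2 CPM of Lcn2 and C3 correlated over the 12 libraries (Pearson r = 0.924, permutation p = 3e-05, Benjamini-Hochberg 3e-04 over 10 pairs of tested genes; Spearman rho = 0.832, permutation p = 0.00488, adjusted 0.0123). Within genotypes r was 0.924 in BKO and 0.966 in Cre, and without BKO-2 and BKO-3, the 2 libraries farthest from the median of Lcn2, it was 0.873. Lcn2 and Cfb correlated likewise (r = 0.901, permutation p = 0.00065, adjusted 0.00325; rho = 0.867, permutation p = 0.00233, adjusted 0.0123), with r of 0.938 in BKO, 0.68 in Cre and 0.786 without the same 2 libraries. C3 and Cfb were at r = 0.754 (permutation p = 0.014, adjusted 0.0467; rho = 0.853, permutation p = 0.00283, adjusted 0.0123), with 0.827 in BKO, 0.474 in Cre and 0.607 without BKO-2 and BKO-5. Lcn2 and Pigr were at r = 0.652 (permutation p = 0.0477, adjusted 0.0954; rho = 0.692, permutation p = 0.0258, adjusted 0.0516). Within BKO r was 0.855 and within Cre 0.004, and the difference between genotypes was not tested. Lbp and Lcn2 were at r = 0.55 (permutation p = 0.0288, adjusted 0.072; rho = 0.797, permutation p = 0.00492, adjusted 0.0123), or r = 0.604 without Cre-4 and BKO-4. The other 5 pairs had r between 0.342 (Lbp and Cfb) and 0.611 (Cfb and Pigr), with adjusted p of 0.106 or more, and rho between 0.497 (C3 and Pigr) and 0.636 (Lbp and Cfb), with adjusted p of 0.063 or more.

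Beyond the list, the 3 genes whose genotype-centred log2 CPM over the 12 libraries was most like that of Lcn2, among 11999 candidates, were the ferroxidase ceruloplasmin, Cp (Pearson r = 0.947), the protease gene Adamts4 (0.939) and Trip10 (0.932). Cp was also second for Cfb (0.907), after the transcription factor Bhlhe40 (0.914) and before Lcn2 itself (0.901). C3 was most like Zdhhc9 (0.938), Hn1 (0.937) and the kinase Map4k4 (0.936). Lbp was most like Als2cl (0.948), Plekha7 (0.923) and the transcription factor Gata6 (0.911), and Pigr was most like Btbd17 (0.935), Lrrc42 (0.92) and Aars2 (0.879). These values describe the same 12 libraries, with their shared depth and composition.

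**Figure D2:**
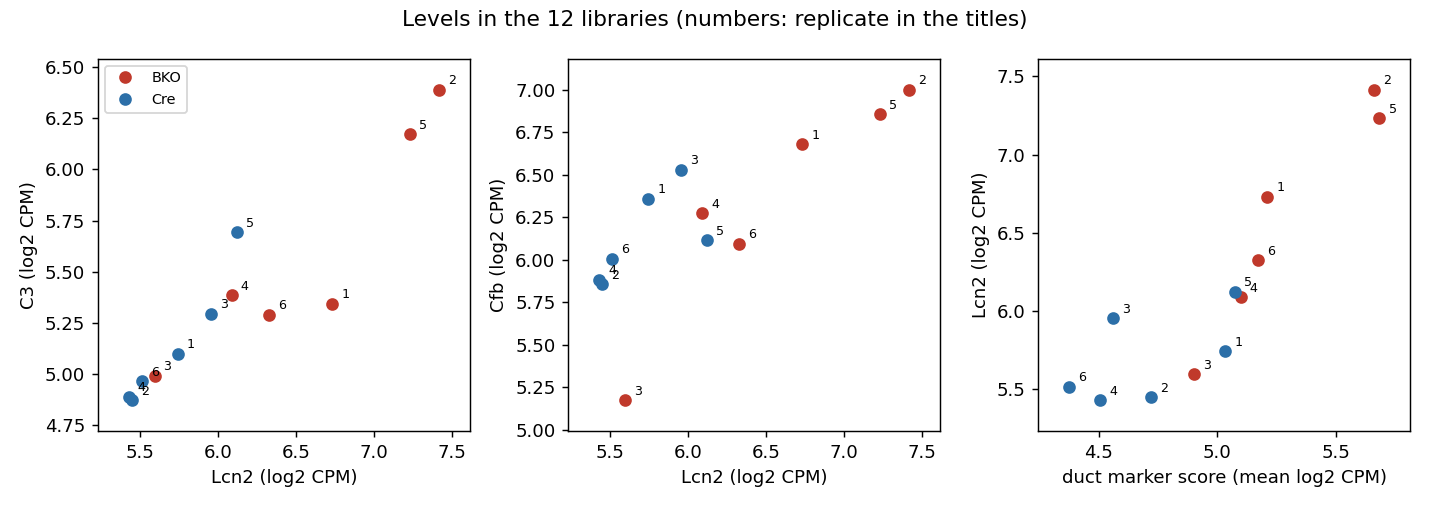
Log2 CPM of C3 (left) and of Cfb (middle) on the vertical axis against log2 CPM of Lcn2 on the horizontal axis, and log2 CPM of Lcn2 against the mean log2 CPM of the duct markers (right), with 1 point per library, BKO red and Cre blue, with replicate numbers. BKO-2 and BKO-5 sit at the upper right in each panel.

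Other genes of the same response were taken from lists of related genes. Among 27 further acute-phase genes, 13 passed the filter, all 13 through both genotypes, and each had a positive log2 fold change, with a median of 0.748 against 0.00775 over all genes tested. Over all genes 0 of the 13 passed edgeR's test. At an unadjusted p under 0.05, 6 were higher and 0 lower, where 8.7% of all genes were higher. Lrg1, a secreted leucine-rich glycoprotein of the acute phase, was at 25.6 ± 12.8 against 8.72 ± 3.22 CPM (BKO against Cre; SD, n = 6 each), with a fold change on the log2 scale of 1.55 ± 0.39 (SE; edgeR adjusted p = 0.168, DESeq2 adjusted p = 0.0179). Cp was at 22.1 ± 8.32 against 12.3 ± 2.95 CPM (0.84 ± 0.25; edgeR adjusted p = 0.198). The ferrireductase Steap4 had a log2 fold change of 1.06 ± 0.40 and the matrix protein fibronectin, Fn1, of 0.75 ± 0.27. The metal-binding metallothioneins, the most abundant of the list, were nearly level, with Mt1 at 1469 against 1443 CPM (0.026 ± 0.082) and Mt2 at 1325 against 1237 CPM (0.099 ± 0.11). Without the filter, 21 of 26 acute-phase genes with reads were positive, with a median of 0.663. The median of the 13 was 0.42 without BKO-2, and Mt1 was slightly negative without BKO-3, Cre-3, Cre-5 or Cre-6.

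Complement genes were mixed. Of 19 tested, 11 were positive and 8 negative, with a median of 0.183, and 0 passed over all genes. At an unadjusted p under 0.05, 4 were higher and 1 lower (8.7% and 4.66% of all genes). C7, 1 of these 4, was over the filter's cutoff in 4 BKO and 2 Cre libraries. Without the filter, 13 complement genes were positive and 12 negative, with a median of 0.044. The secreted chaperone clusterin, Clu, was at 770 ± 315 against 453 ± 121 CPM (SD, n = 6 each), with a fold change on the log2 scale of 0.77 ± 0.27 (SE; edgeR adjusted p = 0.275). Complement factor I, Cfi, which inactivates C3b, had a log2 fold change of 0.66 ± 0.25, C4b one of 0.68 ± 0.28 and the C1 inhibitor Serping1 one of 0.32 ± 0.15. C1qb, a macrophage product, had a log2 fold change of -0.57 ± 0.27 (2.61 against 3.89 CPM).

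Further epithelial defence genes had a median of 0.133 over 26 tested of 40, with 19 positive and 7 negative and 0 past the test; 3 were higher and 2 lower at an unadjusted p under 0.05, against 8.7% and 4.66% of all genes. The membrane mucin Muc1 was at 16.4 ± 6.46 against 9.29 ± 1.95 CPM (SD, n = 6 each), with a fold change on the log2 scale of 0.82 ± 0.24 (SE; edgeR adjusted p = 0.192, DESeq2 adjusted p = 0.0327). The glycosyltransferase gene Gcnt3 had a log2 fold change of 1.11 ± 0.36, at 1.34 against 0.616 CPM. It was over the filter's cutoff in 5 BKO libraries but only 1 Cre library. The tight-junction gene Cldn4 had a log2 fold change of 0.35 ± 0.12, whereas that of Muc4, another membrane mucin, was -0.31 ± 0.12. Muc1 and Cldn4 are also on the duct marker list. Of the 26 genes, 3 passed the filter through BKO alone and 4 only by counting libraries of both genotypes together. Without the filter, 28 genes of this list were positive and 11 negative, with a median of 0.125.

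A list of inducing cytokines, receptors and transcription factors, which also holds inhibitors such as Tnfaip3, had 40 of 48 genes tested. Their median was 0.171, with 30 positive and 10 negative. At an unadjusted p under 0.05, 16 were higher and 0 lower, where 8.7% and 4.66% of all genes were, and 0 passed over all genes by edgeR or DESeq2. The cytokine Il6 was at 27.1 ± 16.5 against 9.32 ± 4.82 CPM (SD, n = 6 each), with a fold change on the log2 scale of 1.53 ± 0.47 (SE; edgeR adjusted p = 0.212). Tnfaip3, an NF-κB inhibitor, had a log2 fold change of 0.50 ± 0.16, the STAT-induced kinase Pim1 one of 0.35 ± 0.12 and the receptor-bound kinase Jak2 one of 0.19 ± 0.065. Stat3 itself was at 474 against 478 CPM (-0.012 ± 0.072, turning slightly positive without BKO-1, BKO-3 or Cre-5), and the interleukin-1 receptor Il1r1 was at 595 against 538 CPM (0.15 ± 0.10). In the lipopolysaccharide-sensing pathway that Lbp feeds, 12 genes were tested, with a median of 0.055, 7 positive and 5 negative, and 0 past the test; 4 were higher and 0 lower at an unadjusted p under 0.05 (8.7% and 4.66% of all genes). Cd14, which receives lipopolysaccharide from the Lbp protein, was at 12.4 ± 6.13 against 5.15 ± 1.53 CPM (1.27 ± 0.32; edgeR adjusted p = 0.156, DESeq2 adjusted p = 0.0287). Irak3, an inhibitory kinase of Toll-like receptor signalling, was at 6.83 ± 1.06 against 4.30 ± 0.474 CPM (0.66 ± 0.14; edgeR adjusted p = 0.121, DESeq2 adjusted p = 0.0111). The adaptor Tirap (0.27 ± 0.11) and the kinase-family gene Irak2 (0.23 ± 0.11) had smaller log2 fold changes, and the more abundant Irak1 (-0.076 ± 0.044) and Traf6 (-0.082 ± 0.053) were slightly negative. Without BKO-4, edgeR called Cd14 (adjusted p = 0.0422), Irak3 (0.028) and Tnfaip3 (0.0282), and without Cre-5 it called Irak3 (0.0389).

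**Figure D3:**
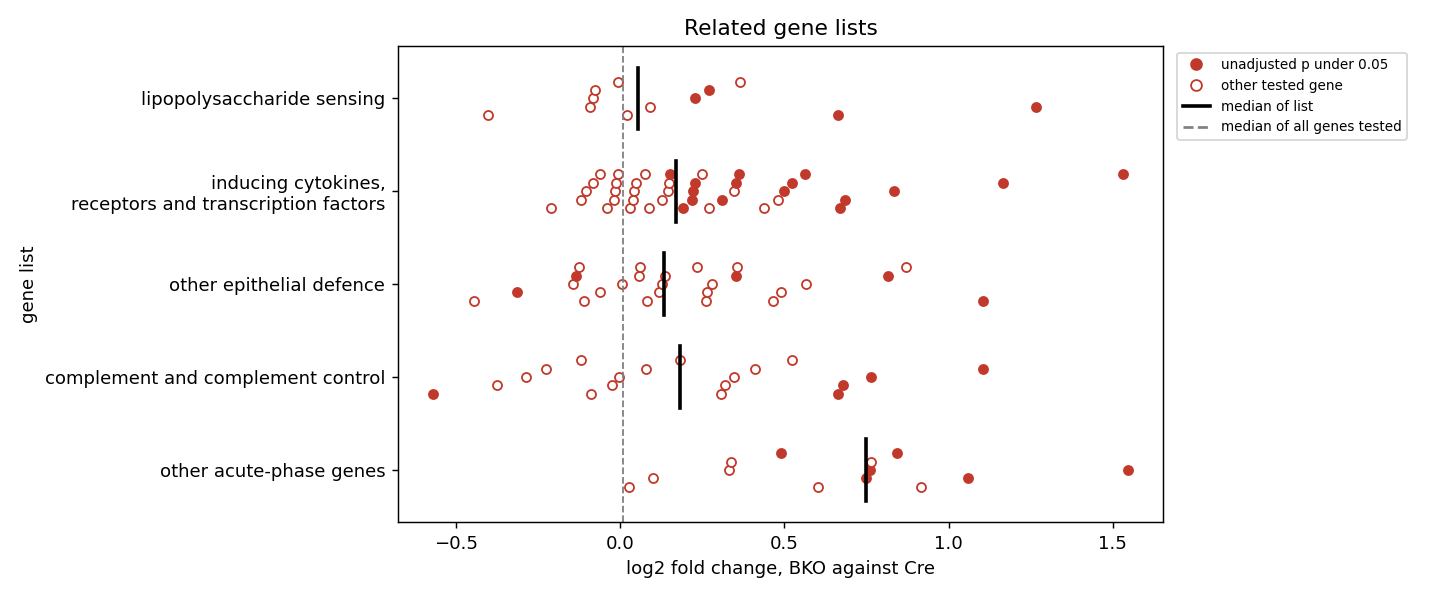
Log2 fold change, BKO against Cre (horizontal axis), of each tested gene in 5 related lists; filled points have an unadjusted p under 0.05, black bars are list medians and the dashed line is the median of all genes tested. The 13 other acute-phase genes all lie to the right of 0, with a median of 0.748, while the other lists spread to both sides.

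Marker scores of duct, endothelial and α cells also differed in mean between BKO and Cre, but did not pass after adjustment over the lists. The duct score, the mean log2 CPM of 18 markers of the pancreatic ducts, was 5.29 ± 0.316 for BKO and 4.71 ± 0.287 for Cre libraries (SD, n = 6 each; two-sided exact permutation p = 0.0108, 0.0648 after Benjamini-Hochberg adjustment over 12 lists). Of its 17 tested markers 13 were positive and 8 were higher at an unadjusted p under 0.05, where 52.8% and 8.7% of all genes were. Its summed level ran from 3589 to 4830 CPM in BKO and from 3425 to 4085 CPM in Cre, and no marker was at 0. The highest were Spp1 (1639 against 1419 CPM) and the keratin Krt7 (590 against 601 CPM). BKO-5 and BKO-2, the libraries highest in Lcn2, had the 2 highest duct scores (5.68 and 5.66). The endothelial score averaged 5.02 against 4.52 (exact permutation p = 0.00866, adjusted 0.0648), with summed levels of 657 to 945 against 511 to 736 CPM. Of its 16 markers 16 were positive and 14 were higher at an unadjusted p under 0.05, against the same shares of all genes. This score too was highest in BKO-5 (5.32) and BKO-2 (5.22). Stellate and mesenchymal markers were at 2.76 against 2.16 (exact permutation p = 0.0519, adjusted 0.125). β-cell markers were at 9.62 against 9.82 (exact permutation p = 0.0519, adjusted 0.125) and α-cell markers at 6.85 against 6.50 (exact permutation p = 0.026, adjusted 0.104). Of 12 β-cell markers 1 was positive and 4 were lower at an unadjusted p under 0.05, as 4.66% of all genes were. Of 9 α-cell markers 9 were positive and 6 were higher, where 52.8% and 8.7% of all genes were. With genotype means taken off, Lcn2, C3, Cfb, Lbp and Pigr correlated with the duct score at Pearson r of 0.811, 0.827, 0.658, 0.598 and 0.421. With the endothelial score r was 0.662, 0.794, 0.386, 0.582 and 0.305 in the same order. With the β-cell score it was -0.641, -0.779, -0.609, -0.177 and -0.355, and with the α-cell score 0.314, 0.101, 0.244, 0.717 and 0.278. The part of these cells in the values above was not tested.

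Acinar markers, which come from the exocrine tissue around islets, ran from 1804 to 6361 CPM summed in BKO and from 352 to 8133 CPM in Cre (score 5.72 against 4.76, exact permutation p = 0.177, adjusted 0.303). The 2 highest acinar scores were those of Cre-2 (6.95), where Lcn2 was at 43.5 CPM, and BKO-5 (6.57), where it was at 150.1 CPM. Macrophage and dendritic cell markers were at 2.15 against 2.38 (exact permutation p = 0.292, adjusted 0.372). Neutrophils store Lcn2 protein, and their markers were low, with summed levels of 1.90 to 5.58 CPM in BKO and 3.15 to 5.80 CPM in Cre. S100a9 (2.97 against 2.95 CPM), which passed the count filter through both genotypes, and Csf3r (0.626 against 0.622 CPM) led that list. Mpo, Elane and Retnlg had no read in any library. Adipocyte markers summed to 20.7 to 29.3 CPM in BKO and 17.6 to 25.4 CPM in Cre (score 1.65 against 1.57, exact permutation p = 0.392, adjusted 0.428). Fabp4 (15.4 against 12 CPM) and Cd36 (5.04 against 4.05 CPM) led that list, while Lep had no read and Adipoq, Plin1, Cfd and Retn had at most 3 reads in any library. Liver markers summed to 60.2 to 155 CPM in BKO and 28.1 to 89.4 CPM in Cre (score 0.813 against 0.529, exact permutation p = 0.0693, adjusted 0.139). Fgb (69.6 against 36.8 CPM), which is also on the list of other acute-phase genes, and Tat (25.7 against 17.8 CPM) led it, while Apoc3, Cyp3a11, Serpina1c and Ahsg had at most 3 reads in any library. The part of neutrophils, liver cells or fat cells in the values of the 10 genes was not tested.

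With the duct score as a covariate in the edgeR fit, the log2 fold change of Lcn2 was 0.040 (main value 0.97), that of Lbp 0.81 (1.42) and that of Pigr 0.13 (0.31), while C3 (-0.28) and Cfb (-0.35) turned negative. With the endothelial score the values were 0.16 for Lcn2, 0.79 for Lbp, 0.15 for Pigr, -0.33 for C3 and -0.094 for Cfb. With the acinar score they stayed between 0.27 (Pigr) and 1.40 (Lbp). No gene among these 5 passed in any of the 3 fits. Neither score is independent of genotype (differences of 0.575 and 0.497), and a fit with one of them as a covariate divides the shared variation between score and genotype. With the duct score the median of the 13 other acute-phase genes was -0.078, that of complement genes -0.10 and that of the list of cytokines, receptors and transcription factors -0.043. With the endothelial score these medians were 0.185, -0.0495 and -0.0492. The named genes Steap4, Fn1, C4b, Serping1, Clu and Muc1 were negative with the duct score, as were Fn1, C4b, Clu and Pim1 with the endothelial score. Muc1 is itself a marker in the duct score, so part of its own difference is taken off by construction.

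**Figure D4:**
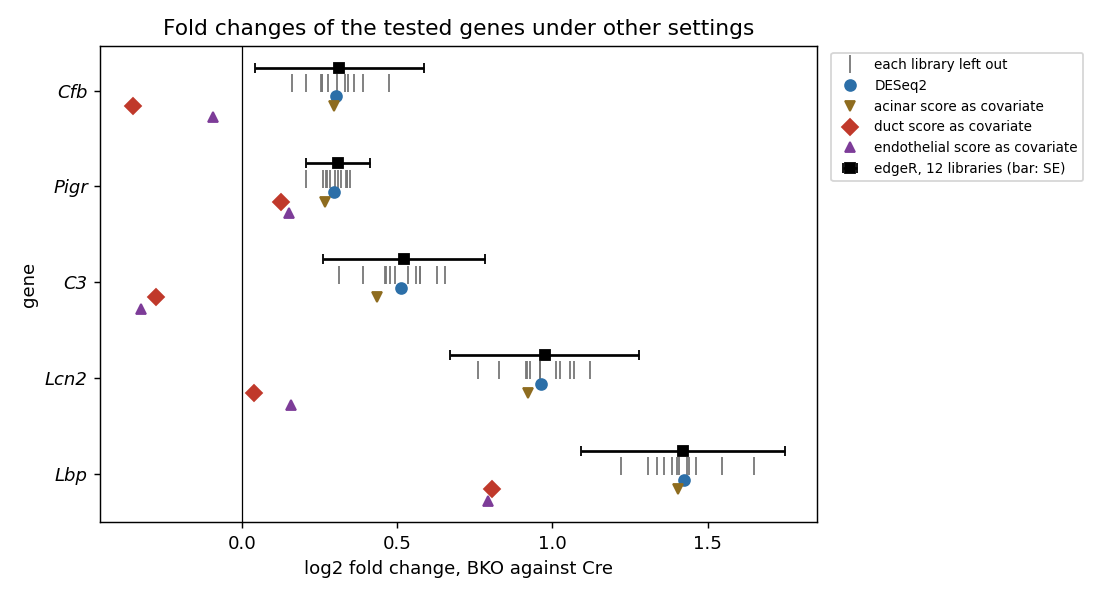
Log2 fold change, BKO against Cre (horizontal axis), of the 5 tested genes: black squares with SE bars give the edgeR fit on 12 libraries, grey ticks the fits with each library left out, and coloured symbols DESeq2 and the fits with an acinar, duct or endothelial score as a covariate. With the duct score Lcn2 lies at 0.040, Cfb at -0.35 and Lbp at 0.81, against 0.97, 0.31 and 1.42 without a score.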

How the data were processed

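The 12 deposited per-sample tables hold raw read counts per gene symbol; HISAT2 2.0.5, HTSeq and mm10 were used, per the submitters' processing notes. For HTSeq's version, the annotation and the strand setting, the sources used here give nothing. Total RNA was taken from islets and sequenced as paired ends, per the labels' protocols. The 5 summary lines, which name no gene, were left out. Of all reads in BKO and Cre, 9.9% and 9.41% fell outside genes and 1.21% and 1.18% were ambiguous. Those set aside for low alignment quality were 18.6% and 20.2%, with 27.3% in Cre-1. A further 2.43% and 2.47% did not align, and 5.08% and 5.02% aligned to several places. The deposited series-wide table was not used.

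Counts were tested with edgeR 4.0.16 (R 4.3.3): filterByExpr, TMM scaling, robust quasi-likelihood fits, and p-values adjusted over all genes by Benjamini-Hochberg. DESeq2 1.42.0 and limma-voom (limma 3.58.1) were alternatives, with other scalings, filters, covariates, a replicate block and each library left out. The fit was tested on simulated data. Scores are means of log2 CPM (prior count 2) over markers with at least 10 reads in all. Exact permutation tests used all 924 splits (smallest p 0.00216), correlations 100000 permutations within genotype. Intervals are exact (Clopper-Pearson, 95%) and cover counting error only. Chi-square per degree of freedom between replicates was 4.84 to 28.3, so replicates differed by more than counting error. Separate preparations from the same mouse could also differ in this way. Positions and exon lengths come from GENCODE vM21 (GRCm38).

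The 10 genes and all lists were chosen with earlier results of these data known. Besides the 10, the text names from each related list up to 4 genes lowest in p (among those averaging a log2 CPM of 0 or more) and the 2 most abundant. It also names the 3 genes most like each member with a mean of at least 1 CPM. The 2 most abundant markers are named only for duct cells, neutrophils, adipocytes and liver cells, and for β cells Ins2 alone. Markers with no or few reads were named after their values were seen.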

Additional observations from a re-analysis of the deposited data

Results flagged for a closer look

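In 98 sets of 6 libraries (single genes or marker scores within a genotype) the highest or lowest library was compared with the others, and 7 stood apart; chance gives about 1 in 20. BKO-4 was apart in Saa3, at 0.871 CPM against 0 to 0.188 CPM in the other BKO libraries. BKO-5 was apart in Hp, at 0.662 CPM against 0 to 0.188 CPM. Cre-3 was apart in Saa1, at 0.238 CPM against 0 to 0.086 CPM. These 3 values rest on 10, 7 and 3 reads. Cre-2 was apart in Cldn4, at 337 CPM against 219 to 252 CPM. Cre-6 was the low library in Tnfaip3, at 14.6 CPM against 20 to 22.2 CPM, and in Traf6, at 65.9 CPM against 70 to 72 CPM. Cre-5, which held the highest Cre level of Lbp, Lcn2 and C3, was apart in the stellate and mesenchymal score, at 3.13 against 1.68 to 2.15.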

How the results depend on the processing

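For the 5 tested genes 111 of 119 values under other settings kept their direction and their side of the threshold. Lbp alone was called, with DESeq2 (adjusted p = 0.0154), without BKO-4 or Cre-5, and in a fit with a replicate block (adjusted p = 0.014), so that the number of the 10 genes past the test was 1 under DESeq2 and 1 under the block, and from 0 to 1 with each library left out. Over all genes DESeq2 called 214 and the replicate block 364, and leaving out each library gave from 0 to 262; the cause was not tested. The labels do not say whether the replicate numbers pair the samples. Of 6 same-numbered pairs, 4 deviated together (correlations of 0.194 to 0.264) and the others did not (-0.072 and -0.047), and 4 BKO and 3 Cre libraries correlated best with their own number. These correlations do not settle whether the samples are paired. Since the labels state no pairing, the report's values are from the fit without the block. The replicate block also called Muc1 (adjusted p = 0.00977), Cd14 (0.022), Irak3 (0.0241) and Clu (0.0427). The mean CPM differences of the 5 genes under the filter moved by less than 1 SD in all 65 recomputations. Leaving out 1 of 6 libraries moves a group mean by less than 1 SD of that group whatever the values, so stability is not shown. Reversed values with the duct score were C3 -0.28, Cfb -0.35, Steap4 -0.13, Fn1 -0.17, C4b -0.15, Serping1 -0.056, Clu -0.10 and Muc1 (itself a marker in that score) -0.072. With the endothelial score they were C3 -0.33, Cfb -0.094, Fn1 -0.25, C4b -0.13, Clu -0.0495 and Pim1 -0.031. Mt1 turned to -0.044 with the acinar score. With each library left out Mt1 ran from -0.0287 to 0.0692, Stat3 from -0.0607 to 0.0333 and the neutrophil score difference from -0.0227 to 0.143, each changing sign. Of 647 values of the named genes in related lists 617 stayed the same, 12 passed the threshold and 18 reversed. Without Cre-5 the duct (adjusted p = 0.0346), endothelial (0.026) and stellate (0.0346) scores passed. Depth limits Saa1, Saa2, Saa3 and Hp, which lay at or near the floor of 3 reads.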
